A study of Homo sapiens with 12 samples.

Results

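The comparison set MDA-MB-453 breast cancer cells with induced K303R estrogen receptor alpha (ER) against the same cells with induced wild-type (WT) ER. ATAC-seq uses a transposase that inserts sequencing adapters where DNA is accessible, and each library was deposited as a list of peaks on hg38. Regions were merged over 4 peak lists, K303R with Dox, K303R with Dox+E2, WT with Dox and WT with Dox+E2. Each list had been cut to its 64476 peaks with the highest −log10 p. Of 75123 merged regions on chromosomes 1 to 22 and X, 3957 (5.27%) held a kept peak in both K303R libraries and in neither WT library, and are called K303R-only. The reverse, WT-only, held for 2754 (3.67%). A further 23911 regions (31.8%) were open in all 4, and the remaining 44501 had other mixtures.

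Both lines carried an ectopic ER under doxycycline control, and all 4 cultures received doxycycline (Dox, 2 ug/mL) for 2 days, so the compared lines differ in the receptor form and in whatever else separates the engineered lines. In each form 1 library had Dox alone and 1 had Dox with 1 nM estradiol (E2). The cells grew in medium with serum. The series holds 12 libraries, 1 for each of 3 ER forms (K303R, Y537S and WT) and 4 treatments (none, E2, Dox, Dox+E2), and the 8 libraries outside the comparison were used to look the regions up. The sources used here do not say whether a line is a clone or a pool. There were no replicates: the 2 libraries of a form differ in E2, and with 2 libraries against 2 an exact permutation test has 6 arrangements and cannot go below p = 0.333.

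ER alpha is a transcription factor that binds estrogen and then DNA, mostly at enhancers away from genes, where forkhead and GATA factors such as FOXA1 and GATA3 help it to bind. It recruits coactivators and corepressors, and GREB1, TFF1 and PGR are classical target genes in breast cancer cells. K303R changes a lysine of the hinge between the DNA-binding and ligand-binding domains, a residue known to be modified by acetylation. Y537S lies in the ligand-binding domain and is known for activity without hormone. MDA-MB-453 lacks appreciable ER of its own and is a luminal line driven by the androgen receptor. Expression was not measured here, but the luminal genes FOXA1, GATA3, XBP1 and ERBB2 had 5, 3, 8 and 12 regions open in all 4 libraries within 50 kb.

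The member regions at gene starts can be shown with their sequences. The stretches below are promoters from RefSeq (GRCh38.p14), 250 bases before to 50 after a start, read 5′ to 3′ on the gene's strand. They were chosen because a named member region has its summit inside them, 2 from each class. Capitals mark an arm of the estrogen response element (GGTCA on either strand) in the first and a forkhead motif (TGTTTAC on either strand) in the last. The promoters of CLEC3B and RBM41 hold none of the 6 motifs searched.
PRRT3 (K303R-only, chr3:9952359-9952658, minus strand): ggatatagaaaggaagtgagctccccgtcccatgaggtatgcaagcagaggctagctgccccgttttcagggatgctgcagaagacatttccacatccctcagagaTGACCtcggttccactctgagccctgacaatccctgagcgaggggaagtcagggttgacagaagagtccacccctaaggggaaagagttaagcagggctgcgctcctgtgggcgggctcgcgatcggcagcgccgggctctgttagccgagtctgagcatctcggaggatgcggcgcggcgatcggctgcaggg
CLEC3B (K303R-only, chr3:45026053-45026352, plus strand): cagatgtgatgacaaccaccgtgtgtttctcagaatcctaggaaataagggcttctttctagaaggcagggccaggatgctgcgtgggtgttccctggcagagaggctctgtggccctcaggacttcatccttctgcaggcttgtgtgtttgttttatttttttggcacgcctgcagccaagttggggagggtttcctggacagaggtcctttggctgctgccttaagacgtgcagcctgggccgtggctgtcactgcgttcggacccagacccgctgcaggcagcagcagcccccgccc
RBM41 (WT-only, chrX:107118773-107119072, minus strand): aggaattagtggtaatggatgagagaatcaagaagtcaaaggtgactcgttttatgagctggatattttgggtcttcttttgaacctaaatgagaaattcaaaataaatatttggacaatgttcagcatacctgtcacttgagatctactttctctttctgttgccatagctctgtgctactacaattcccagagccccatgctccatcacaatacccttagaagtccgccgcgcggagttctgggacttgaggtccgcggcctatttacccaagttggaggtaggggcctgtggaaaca
STAG2 (WT-only, chrX:123960310-123960609, plus strand): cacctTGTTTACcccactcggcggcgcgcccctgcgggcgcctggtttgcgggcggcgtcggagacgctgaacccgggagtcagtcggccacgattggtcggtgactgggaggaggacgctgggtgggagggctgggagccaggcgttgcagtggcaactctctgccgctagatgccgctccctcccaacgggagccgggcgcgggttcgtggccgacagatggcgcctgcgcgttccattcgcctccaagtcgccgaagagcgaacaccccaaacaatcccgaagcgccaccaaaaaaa

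The region at the start of PRRT3 (hg38, chromosome 3, 9952034 to 9952541), a proline-rich membrane protein gene, had summit pileups of 11 and 15 fragments in K303R under Dox and Dox+E2, and was missing from both WT lists. Without Dox it had a peak in both lines, 11 and 11 in K303R (none, E2) and 7 and 9 in WT. The region at CLEC3B, which encodes tetranectin (chromosome 3, 45025970 to 45026368), had 11 and 10 in K303R under Dox and Dox+E2 and no peak in WT, whereas without Dox it had 5 and 12 in K303R and 4 and 8 in WT. At RBM41, an RNA-binding protein gene (chromosome X, 107118756 to 107118976), the order was turned. It had 4 and 4 in K303R under Dox and Dox+E2, below the cut, against 12 and 10 in WT, and without Dox 8 and 9 in K303R and 4 and 11 in WT. At STAG2, which encodes a cohesin subunit (chromosome X, 123960088 to 123960502), the pileups were 4 and 5 in K303R, below the cut, against 14 and 10 in WT. Without Dox it had 7 and 7 in K303R, and in WT no peak untreated and 5 with E2. The starts shown were thus listed in both lines without Dox. That of SYT8, a WT-only start ranked above those of RBM41 and STAG2, had no peak without Dox in either line. The same held for 67.5% of all WT-only regions.

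These values show the scale of the differences. The number of peaks before the cut was 97243 and 102713 in K303R (Dox, Dox+E2) and 82091 and 64476 in WT, an ordering that gave the smallest p the design allows (exact permutation test, two-sided, p = 0.333). The background pileup that stands for depth was 0.210 and 0.192 in K303R and 0.361 and 0.253 in WT. The cut fell at a pileup of 5 and 6 in K303R and of 6 and 4 in WT. Pileups are whole numbers, so many peaks tied there: 602 of 13441 and 8209 of 11522 tied peaks were kept in K303R, 4079 of 10048 and all 2952 in WT. The WT Dox+E2 list is the shortest and was not cut. The median pileup of K303R-only regions was 7 and 8 in K303R (highest 28 and 26), and that of WT-only regions 8 and 7 in WT (highest 22 and 23). Regions open in all 4 had medians of 14 and 14 in K303R and 14 and 12 in WT, so members of both classes were weak regions near the cut. A missing peak means a pileup under the listed range and not closed chromatin. Of the K303R-only regions, 35.6% had a peak below the cut in WT with Dox (median pileup 5). Of the WT-only regions, 43.5% and 62.9% had one in K303R under Dox and Dox+E2 (median 4 and 5). No peak of any height was listed in the other form for 2550 K303R-only regions (64.4%) and 698 WT-only regions (25.3%). These shares are not alike. The WT Dox+E2 list was not cut, so no K303R-only region could have a peak below the cut there. The uncut K303R lists are also longer than the WT ones, which leaves more room for a peak below the cut at WT-only regions.

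The peak names carry tags that group the libraries, and the sources used here do not say what a tag stands for. All 4 K303R libraries and the WT libraries without Dox share 1 tag, both WT libraries with Dox carry another, and the 4 Y537S libraries a further one. In the induced pair, ER form and tag therefore cannot be told apart, and neither can Dox and tag within WT. Comparisons with and without Dox in K303R and in Y537S lie inside 1 tag.

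K303R-only regions were mostly regions also listed without Dox, in both lines. A kept peak was present without Dox in both lines for 60.7% of them, in the K303R line alone for 13.6% and in the WT line alone for 10.6%. The order of these single-line shares turned with uncut lists, at 8.365% for K303R alone and 13.55% for WT alone. Of the lists without Dox in these lines, the cut shortened only that of WT with E2 (78022 peaks). The remaining 15.1% (596 regions, exact 95% interval 13.96 to 16.21%) had no peak without Dox in either line. Library by library, 38.8% and 71.0% were open in K303R without Dox (none, E2), and 46.4% and 62.9% in WT without Dox. The untreated K303R and WT lists are shorter than the cut (39522 and 47190 peaks, and 61723 with E2 in K303R), so those shares rest on fewer peaks. Regions open in all 4 induced libraries were open in 75.1% and 90.2% in K303R and in 81.8% and 89.6% in WT without Dox.

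WT-only regions had the opposite pattern. No peak without Dox was listed in either line for 67.5% (1859 regions, exact 95% interval 65.7 to 69.2%), and 14.1% had one in both lines. They were open in 6.21% and 17.4% in K303R without Dox (none, E2) and in 12.5% and 21.97% in WT without Dox. Among regions open in all 4, 5.49% had no peak without Dox in either line. Members that differed the same way without Dox were few. A peak in both K303R libraries and in neither WT library without Dox was found at 100 K303R-only regions (2.53%), and 110 (2.78%) showed the reverse. A peak in both WT libraries and in neither K303R library without Dox was found at 64 WT-only regions (2.32%), and 13 (0.472%) showed the reverse. With uncut lists the same way and the reverse were found at 53 and 141 K303R-only regions, and at 85 and 5 WT-only regions.

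The Y537S line, which the choice of members did not use, separated the classes by Dox. K303R-only regions were open in 16.4% and 15.6% in Y537S under Dox and Dox+E2, against 59.8% and 59.1% without Dox (none, E2). WT-only regions were open in 57.9% and 57.3% under Dox and Dox+E2, against 22.7% and 22.7% without. A peak in Y537S with Dox and none without was found at 3.11% of K303R-only regions and 47.1% of WT-only regions. A peak without Dox and none with it was found at 49.7% of K303R-only and 9.26% of WT-only regions. Regions open in all 4 showed these patterns in 7.23% and 8.40%. The second pattern depended on the cut. Uncut, it held at 24.7% of K303R-only, 3.05% of WT-only and 0.673% of all-4 regions. The first pattern then held at 2.83% of K303R-only and 50.9% of WT-only regions. Peaks both with and without Dox were then listed at 66.5% of K303R-only and 40.7% of WT-only regions. With uncut lists the Y537S shares were higher and kept their order, with 56.4% and 57.2% of K303R-only regions with Dox against 85.2% and 88.7% without, and 86.6% and 87.2% of WT-only regions with Dox against 37.9% and 41.1% without. Each share comes from 1 library, and the intervals here cover counting error over regions only.

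**Figure D1:**
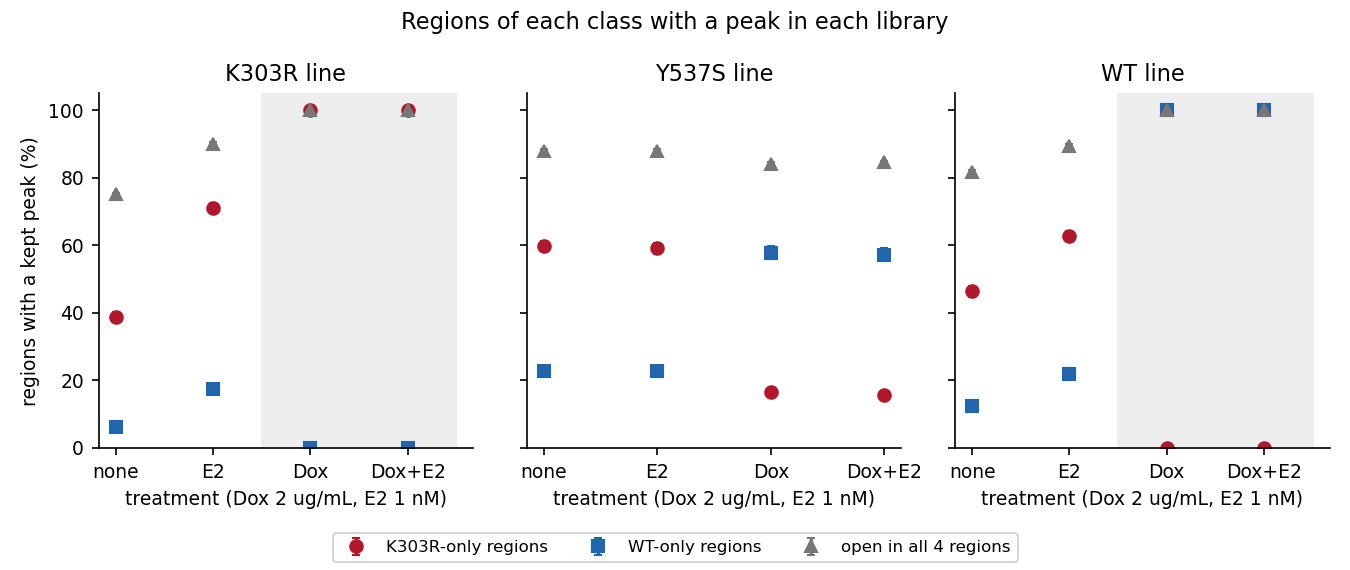
Share of K303R-only (red circles), WT-only (blue squares) and all-4 regions (grey triangles) with a kept peak in each of the 12 libraries, in percent, with exact 95% intervals for counting error; the shaded libraries chose the classes. In Y537S, K303R-only regions are open in 16.4% and 15.6% with Dox against 59.8% and 59.1% without, and WT-only regions in 57.9% and 57.3% with Dox against 22.7% and 22.7% without.

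The strongest K303R-only region lay 29.0 kb from an end of DNAJC15, a mitochondrial co-chaperone gene (chromosome 13, 43142799 to 43143320). Its pileups were 28 and 20 in K303R under Dox and Dox+E2, and no peak was listed in WT with either. Without Dox it had 20 and 23 in K303R and 10 and 21 in WT (none, E2), and Y537S had 22 and 28 without Dox, 7 with Dox and no peak with Dox+E2. A peak was thus listed in every library without Dox, and was missing or lowest with Dox outside the K303R line. Of the other 9 strongest, 8 had a peak of 4 to 6 below the cut in WT with Dox and none with Dox+E2, and their values in Y537S varied. The region inside WWC3, a Hippo pathway regulator gene (chromosome X, 10101150 to 10101654), had 18 and 19 in K303R against a peak of 6 below the cut in WT with Dox and none with Dox+E2, and 15 and 22 in Y537S with Dox against 19 and 22 without. The region 15.1 kb from TNKS2, which encodes a tankyrase (chromosome 10, 91880351 to 91880761), had 18 and 18 in K303R against 5 and no peak in WT, and 8 and 13 in Y537S with Dox against 39 and 45 without. Inside FBXO32, an F-box ubiquitin ligase gene (chromosome 8, 123534423 to 123535098), the values were 19 and 17 in K303R against 6 and no peak in WT. The region 3.32 kb from PDP1, which encodes a pyruvate dehydrogenase phosphatase (chromosome 8, 93929144 to 93929655), had 17 and 20 in K303R and, like the first, no peak in WT at any height. All 10 had peaks without Dox in both lines, and 4 of the 10 lay on chromosome 8. Regions on chromosomes 2 (16250874 to 16251406), 9 (25386050 to 25386510) and 14 (28629356 to 28629941) lay over 100 kb from any gene end.

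The strongest WT-only region lay between BABAM2, a subunit gene of a BRCA1 complex, and FOSL2, which encodes an AP-1 transcription factor (chromosome 2, 28355480 to 28355984, 37.1 kb from the FOSL2 start). It had no peak with Dox and 6 below the cut with Dox+E2 in K303R, against 17 and 20 in WT. No library without Dox listed it, and Y537S had 43 and 14 under Dox and Dox+E2. A like pattern was seen inside PGBD5, a transposase-derived gene (chromosome 1, 230348224 to 230348812), with no peak and 5 in K303R, against 17 and 16 in WT, and 33 and 32 in Y537S with Dox. The regions inside PLCH2, a phospholipase C gene (chromosome 1, 2474761 to 2475677), and MYO18A, a myosin gene (chromosome 17, 29124716 to 29125514), had only a below-cut peak of 5 under Dox+E2 in K303R, against 14 to 15 in WT. The region inside ITGB2, the beta chain gene of leukocyte integrins (chromosome 21, 44905713 to 44906169), had no listed peak in K303R at any height, against 15 and 14 in WT, and 9 and 19 in Y537S with Dox. The region inside CFAP74, a cilia gene (chromosome 1, 1969160 to 1969528), had no peak in K303R, against 14 and 16 in WT, and none in the other 8 libraries. MPPED1 (chromosome 22, 43399238 to 43400530) and CD300H (chromosome 17, 74552141 to 74552505) had 3 to 4 in K303R, against 13 to 18 in WT. Near SMU1, a splicing factor gene (chromosome 9, 33081306 to 33081588), and inside GPR176, an orphan receptor gene (chromosome 15, 39801948 to 39802244), peaks of 4 to 10 were also present without Dox in both lines.

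**Figure D2:**
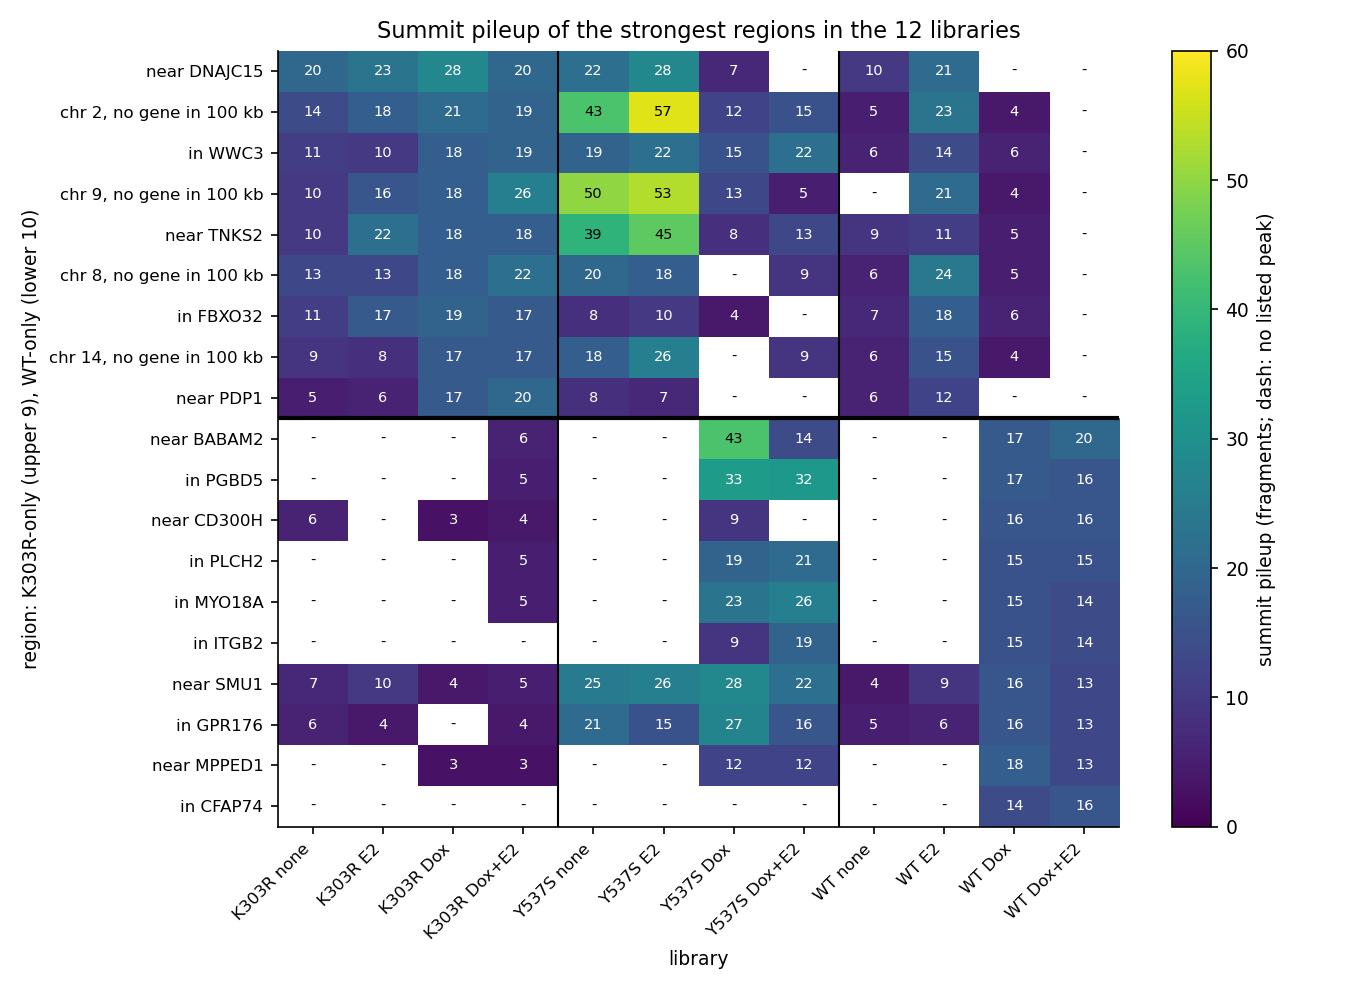
Summit pileup (fragments, colour and number; a dash marks no listed peak) of 9 of the 10 strongest K303R-only regions above the line and the 10 strongest WT-only regions below it, in the 12 libraries. The upper regions have pileups of 17 to 28 in K303R with Dox and peaks without Dox in every line, while 7 of the lower regions have no peak in any K303R or WT library without Dox.

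K303R-only regions listed in neither line without Dox were weaker. The strongest with no peak at any height without Dox in either line lay on chromosome 5 (58080662 to 58080895), far from genes, with 12 and 11 in K303R (Dox, Dox+E2) and no peak in WT. It was nevertheless listed at 11 and 10 in Y537S without Dox and in neither Y537S library with it. Inside SEPTIN10, a septin gene (chromosome 2, 109558572 to 109558827), K303R had 13 and 11, and Y537S 7 with E2 alone and 5 and 10 with Dox. Inside TP53INP1, a p53-inducible stress gene (chromosome 8, 94945372 to 94945690), K303R had 10 and 9, and Y537S 9 and 13 with Dox. Inside HDAC9, a histone deacetylase gene (chromosome 7, 18499447 to 18499733), K303R had 9 and 11. Y537S had 6 and 8 there without Dox and no peak with it. Inside GATAD2A, a subunit gene of the NuRD complex (chromosome 19, 19403417 to 19403950), K303R had 9 and 14, and Y537S 6 with Dox+E2. WT had no listed peak at any of these 5. The further K303R-only gene starts named by rank were those of CNKSR3, ZNF879 and JAKMIP3, and further WT-only ones SYT8 and TRIM39. CNKSR3 (chromosome 6, 154510494 to 154510983) had 17 and 13 in K303R and no peak in WT. SYT8, a synaptotagmin gene (chromosome 11, 1830644 to 1831346), had 5 and 5 in K303R against 14 and 11 in WT.

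K303R-only and WT-only regions lay in different places relative to genes. A summit within 1 kb of a protein-coding gene start was found for 5.26% of K303R-only regions (exact 95% interval 4.58 to 6.00%) and 12.3% of WT-only regions (11.1 to 13.6%), against 36.3% of regions open in all 4 and 17.9% of every merged region. The median distance to a gene start was 40.9 kb for K303R-only, 21.5 kb for WT-only and 6.22 kb for all-4 regions. Summits lay inside a gene in 53.0% of K303R-only, 54.9% of WT-only and 49.4% of all-4 regions. Per library, the share of kept summits within 1 kb of a gene start was 33.0% and 32.4% in K303R and 33.6% and 33.2% in WT (exact permutation test, two-sided, p = 0.333, the smallest possible).

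**Figure D3:**
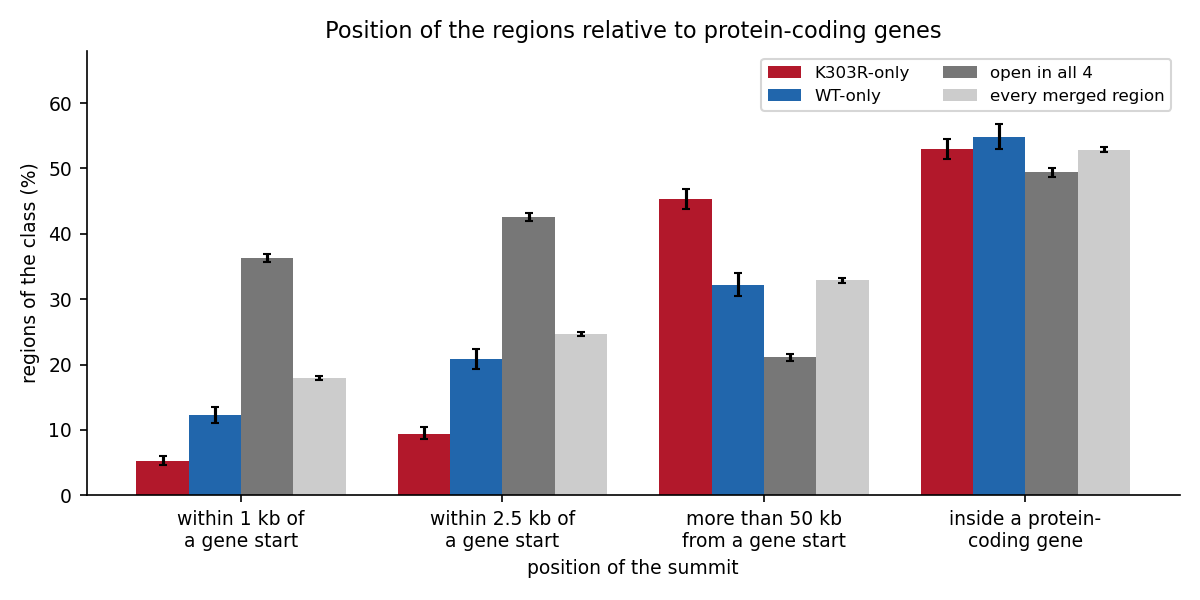
Share of regions in each class (percent, exact 95% intervals for counting error) by position of the summit relative to protein-coding genes. K303R-only regions are within 1 kb of a gene start in 5.26%, WT-only in 12.3% and all-4 regions in 36.3%, and 45.4% of K303R-only regions are more than 50 kb away.

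Chromosomes 8, 10 and 15 held unequal shares of the members. On chromosome 8, 359 regions (9.78% of those on the chromosome) were K303R-only and 87 (2.37%) WT-only. On chromosome 10 the shares were 7.77% and 2.44%, and on chromosome 15 they were 3.17% and 5.63%. The same chromosomes differed in height where both lines were open. Over 16409 regions with a peak in all 8 K303R and WT libraries, pileups were divided by the library's median, and the median log2 ratio of K303R to WT on chromosome 8 was 0.35, 0.34, 0.34 and 0.32 for none, E2, Dox and Dox+E2. On chromosome 10 it was 0.22, 0.20, 0.09 and 0.07, and on chromosome 15 it was −0.14, −0.28, −0.30 and −0.31. These offsets were present without Dox, where both lines share a tag. Chromosomes 13 and 17 also held unequal shares (7.06% and 2.29%, and 3.21% and 5.32%), with median log2 ratios of 0.00 and −0.15 with Dox. Height and shares did not always go together. Chromosome 19 had 0.126 and 0.189 without Dox (none, E2), with shares of 4.69% and 4.06%. Chromosome 22 had −0.17 and −0.165 under Dox and Dox+E2, larger in size than chromosome 10, with shares of 3.60% and 4.57%. Without chromosomes 8, 10 and 15, 3262 K303R-only (4.97%) and 2443 WT-only regions (3.72%) remained, of which 14.6% and 67.5% had no peak without Dox in either line.

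**Figure D4:**
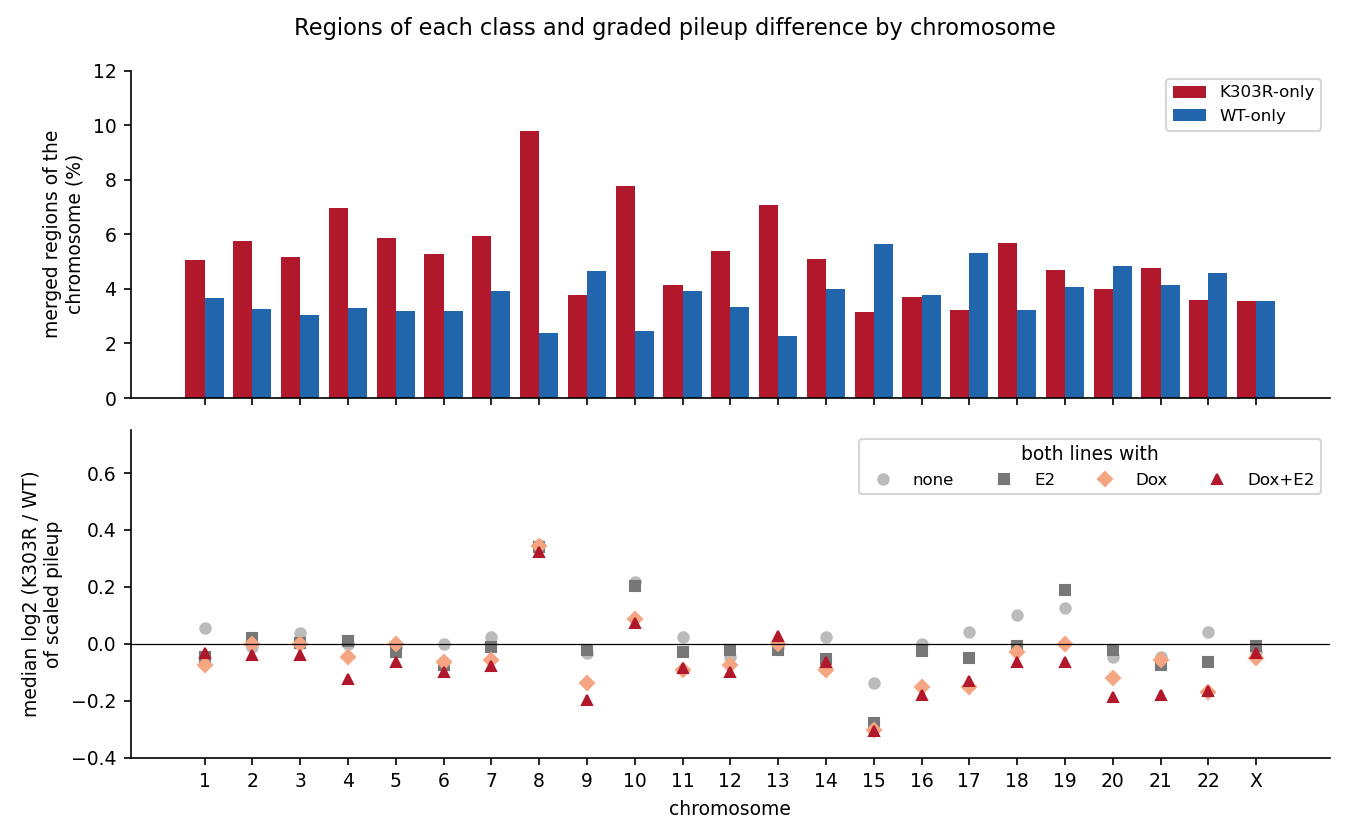
Upper panel, share of each chromosome's merged regions that are K303R-only (red) or WT-only (blue), in percent. Lower panel, median log2 ratio of scaled pileup, K303R over WT, in regions open in both lines, for each treatment; chromosome 8 stands at 0.32 to 0.35 and chromosome 15 below 0 with all 4 treatments.

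Of 18386 protein-coding genes with a merged region within 50 kb, 25.2% had a K303R-only region there and 23.2% a WT-only region. Among 40 estrogen response genes, 15 had a K303R-only and 17 a WT-only region. These genes have more regions around them (median 11.5, against 7 for all genes), and by region the shares were 3.78% K303R-only and 4.62% WT-only, against 3.88% and 3.82% around all genes. Both shares were thus near those around all genes. NRIP1, an ER corepressor gene, had 2 K303R-only and 1 WT-only region, PRLR, the prolactin receptor gene, 2 and 0, and HSPB8, a small heat shock protein gene, 0 and 3. All 3 HSPB8 regions lacked a peak without Dox in either line. The nearest to the start (chromosome 12, 119179715 to 119179957, 0.903 kb away) had no peak in K303R against 10 and 4 in WT.

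Around 12 ER and luminal loci, 7 of 179 regions were K303R-only (3.91%) and 5 were WT-only (2.79%), against 3.88% and 3.82% around all genes. At GREB1, an ER coactivator and target gene, the WT-only region inside the gene (chromosome 2, 11618004 to 11618319) had no peak with Dox and 4 below the cut with Dox+E2 in K303R, against 11 and 10 in WT. It had no peak without Dox. The K303R-only region in its window lay near NTSR2 and had peaks in all 4 libraries without Dox of these lines. Within ESR1, the gene of ER itself, the K303R-only region (chromosome 6, 151833492 to 151833942) had 11 and 8 in K303R, against 4 below the cut and no peak in WT. It lacked a peak without Dox in every line, and Y537S had 18 and 12 with Dox. The WT-only region within ESR1 (chromosome 6, 151944227 to 151944445) had no peak in K303R, against 6 and 6 in WT. Both lines carried an ectopic ER, and whether its sequence gave reads in the regions within ESR1 was not tested. Inside RET, a receptor kinase gene (chromosome 10, 43110560 to 43111110), a WT-only region had 4 and 5 in K303R below the cut, against 12 and 12 in WT, and 31 and 31 in Y537S with Dox. The window of RET also held 1 K303R-only region, outside the gene, with 9 and 7 in K303R and no peak in any other library. PGR, XBP1 and FKBP5, an androgen and glucocorticoid target gene, each had 1 K303R-only region in their windows, none of them inside these genes. ERBB2 had 1 K303R-only region near PGAP3 and 2 WT-only regions. TFF1, CA12, FOXA1, GATA3 and IGF1R had none of either class among 9, 18, 17, 10 and 25 regions.

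The other gene lists had too few members for more than a description, to be read against 25.2% and 23.2% of all genes and against 3.88% and 3.82% of the regions around them. The 12 FOS and JUN family genes, which encode AP-1 and related factors, had K303R-only regions at 4 and WT-only regions at 8, or 1.97% and 8.87% of their regions. FOSL2 and ATF3 gave 4 and 6 of these 18 WT-only regions. All 4 at FOSL2 had a peak in Y537S with Dox and none without, whereas none of the 6 at ATF3 did. Luminal transcription factors had K303R-only regions at 8 of 16 genes and WT-only at 6, or 5.02% and 3.65% of their regions. Androgen response genes had them at 5 and 2 of 20 (4.17% and 1.79% of regions), among them TMPRSS2 with 2 WT-only regions. Basal and myoepithelial genes had them at 9 and 8 of 19, and by region at 7.10% and 5.92%, the highest K303R-only share of the 8 lists. Growth factor receptors and kinases had 6 and 7 of 24 (5.12% and 3.07% of regions), and ER coregulators 8 and 6 of 20 (5.29% and 3.70%). Housekeeping genes had 3 and 9 of 20, with 6.10% of their regions WT-only, so a share above that around all genes was not particular to the FOS and JUN family.

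Over all 8 lists, judged on uncut lists of peaks, 45 of 79 K303R-only regions (57.0%) had a peak without Dox in both lines and 16 (20.3%) in neither. Uncut, the shares over all K303R-only regions were 65.9% and 12.2%. Of 87 WT-only regions, 55 (63.2%) had none in either line and 15 (17.2%) had one in both, against 63.9% and 16.4% of all WT-only regions, uncut. Single genes held regions of either kind. In AKT2, a kinase gene of insulin signalling (chromosome 19), the K303R-only region at 40253390 to 40253891 had 10 and 10 in K303R and no peak in WT. It was listed in all 4 K303R and WT libraries without Dox, at 10 and 7 in K303R and 5 and 9 in WT. PRLR (chromosome 5, 35201122 to 35201614) had 14 and 10 in K303R, against 6 below the cut and no peak in WT, and was likewise listed without Dox at 7 and 11 in K303R and 6 and 15 in WT. Inside TMPRSS2, an androgen-regulated protease gene (chromosome 21, 41498379 to 41498663), a WT-only region had no peak and 5 in K303R, against 6 and 13 in WT. That region had no peak without Dox in any line, and Y537S had 32 and 25 with Dox. The second WT-only region of TMPRSS2 (41507158 to 41507582) was listed without Dox, at 5 with E2 in K303R and at 4 and 11 in WT. Near ACTB, the beta-actin gene (chromosome 7, 5557894 to 5558199), a WT-only region had no peak and 5 in K303R, against 11 and 10 in WT. It too had no peak without Dox in any line, and Y537S had 14 and 12 with Dox. Among luminal factors TRPS1 had 3 K303R-only regions and ELF3 2 WT-only regions, and TRPS1 lies on chromosome 8. Of the 3 at TRPS1, none was listed without Dox in WT and 1 was in K303R, with a pileup of 6 under E2. Among basal genes TP63 had 3 K303R-only and 1 WT-only region.

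**Figure D5:**
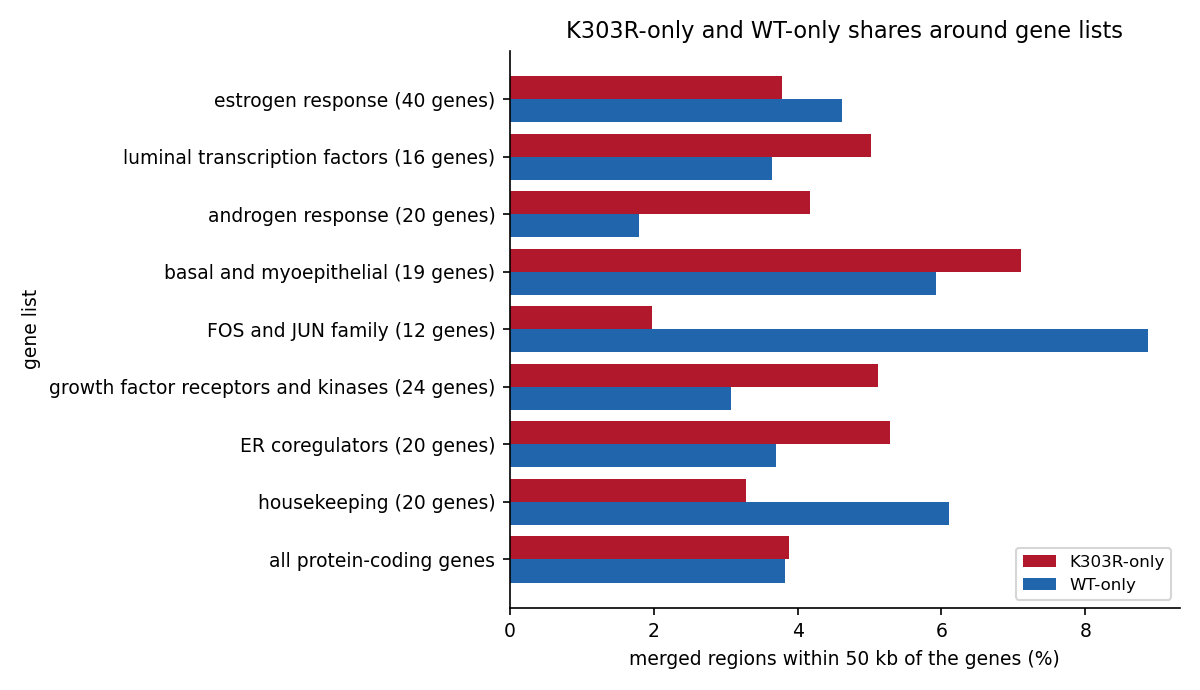
Share of merged regions within 50 kb of listed genes that are K303R-only (red) or WT-only (blue), in percent, with all protein-coding genes in the lowest row. The FOS and JUN family has 1.97% and 8.87%, housekeeping genes 3.29% and 6.10%, and all genes 3.88% and 3.82%.

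Motifs could be counted in promoters, where members were few. A member summit fell in 104 promoters for K303R-only and 86 for WT-only regions, and 6460 for all-4 regions, of 22132 promoters in the RefSeq table. The full estrogen response element (GGTCANNNTGACC) was in none of the 104 and none of the 86, which allows up to 3.48% and 4.20% by an exact interval, and in 0.0361% of all promoters. Its single arm (GGTCA) was in 32.7% of K303R-only and 30.2% of WT-only promoters, against 33.8% of all-4 promoters and 35.6% of all. The AP-1 motif (TGANTCA) was in 8.65% and 6.98%, against 3.96% of all-4 promoters and 6.15% of all, and TGTTTAC in 1.92% and 1.16%, against 2.21% and 2.85%. The GATA motif (AGATAA) was in 4.81% and 5.81%, against 3.44% of all-4 promoters and 7.88% of all. The arm of an androgen response element (AGAACA) was in 3.85% (exact 95% interval 1.06 to 9.56%) and 15.1% (8.30 to 24.5%), against 7.48% of all-4 promoters and 11.7% of all. Member shares of AP-1 and GATA thus lay above those of all-4 promoters, with intervals (AP-1 from 4.03% and 2.60%, GATA from 1.58% and 1.92%) that reach them except for AP-1 in K303R-only promoters. The interval of the androgen arm in WT-only promoters also lay above the all-4 share. Both of these intervals (AP-1 in K303R-only up to 15.8%) hold the share of all promoters. Each motif was searched on both strands, and the single arm is part of the full element. Regions away from promoters were not searched.

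Single genes gathered several K303R-only regions. ERBB4, a receptor tyrosine kinase gene of the EGF receptor family (chromosome 2, 211375717 to 212538802), had 8 K303R-only regions among 20 and no WT-only region. Their pileups ran from 6 to 10 in K303R with Dox and from 6 to 13 with Dox+E2. Of the 8, 2 had a peak below the cut in WT with Dox, 6 were open in K303R with E2 alone, and 6 in WT with E2 alone. NEDD4L, a ubiquitin ligase gene (chromosome 18, 58044226 to 58401540), had 8 K303R-only regions and 1 WT-only region among 43. NSMCE2, a SUMO ligase gene, and EXT1, a heparan sulfate polymerase gene, had 7 each among 23 and 32 regions and lie on chromosome 8. SIPA1L2 had 7 among 36. Among the genes with most WT-only regions were RPSA2, ZNF679, DCST2 and ZNF736, with 7 each among 21, 24, 33 and 36 regions. The windows of ZNF679 and ZNF736 overlap. Around all genes the shares were 3.88% K303R-only and 3.82% WT-only, and these genes were chosen by their counts of members.

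The number of members rests on all 4 libraries. With 1 library per form the classes were nearly even, 13860 K303R-only and 13380 WT-only regions with Dox, and 15365 and 16907 with Dox+E2. Leaving out the WT Dox library gave 7970 and 13232, and leaving out WT Dox+E2 gave 5894 and 8856, which turns their order, since WT-only then needs a single library. Without K303R Dox the counts were 9527 and 4683, and without K303R Dox+E2 10622 and 5407. With uncut lists, which are longer in K303R, 10518 regions were K303R-only and 1288 WT-only. Which class is larger therefore depends on the setting.

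In the median, members had like pileups with and without E2 within a form. Scaled pileup with Dox+E2 over Dox had a median log2 ratio of 0.00 at K303R-only regions in K303R, where 45.2% were higher with E2, and of 0.03 at WT-only regions in WT, where 50.1% were. At regions open in all 4 the medians were 0.08 in K303R and −0.08 in WT. Both libraries of a form had to hold a peak, so regions with a kept peak under a single treatment are not in these classes. Single members still differed in height in either direction. In WT under Dox and Dox+E2, a WT-only region of TMPRSS2 had 6 and 13, and 1 of HSPB8 had 10 and 4.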

How the data were processed

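The authors deposited 1 MACS2 narrowPeak list per ATAC-seq library (75 bp paired ends, per the labels' protocols). FastQC, Bowtie2, SAMtools, Picard and MACS2 with hg38 were used per the submitters' processing notes; the sources used here give no versions or settings, nor whether reads were shifted for the transposase. The deposited score is the −log10 q scaled to a whole number. The deposited fold enrichment is a ratio of summit pileup to background, each plus 1, from which whole pileups and 1 background per library were recovered. The deposited −log10 p (used to rank) and −log10 q belong to single peaks, and the deposited summit offsets gave positions.

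Lists were cut to 64476 lines with ties in a seeded random order, and intervals overlapping by 1 bp or more were merged. Strength is the smaller −log10 p of the libraries where a region is open. Gene ends come from RefSeq GRCh38.p14 (19974 protein-coding genes, 15812 with a start in the promoter table, the others placed by both ends). Shares carry exact 95% intervals (Clopper-Pearson) over regions or promoters. Regions of a library are not replicates, so these cover counting error only. Library values had exact permutation tests. Nothing says that the cultures were independent. The counting was run on simulated lists with changes planted in regions of high pileup. That run does not measure how regions near the cut are recovered. Python 3.11.15, numpy 2.4.6, pandas 2.3.3 and scipy 1.17.1 were used. Regions were named by rank (10 strongest, 5 at gene starts, 5 without a peak without Dox, 5 genes with most), by 8 gene lists and by 12 loci. Members and lists were chosen with earlier results of these data known. A few selected regions and genes are left out of the text.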

Additional observations from a re-analysis of the deposited data

Results flagged for a closer look

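The number of peaks moved in opposite directions when E2 was added to Dox. In K303R the list with Dox+E2 held 102713 peaks and that with Dox 97243, a change of 5470. In WT the list with Dox+E2 held 64476 and that with Dox 82091, a change of −17615. Each direction rests on 1 library per treatment, and the difference between the forms was not tested. The background pileup was also lower with Dox+E2 in both forms, 0.192 against 0.210 in K303R and 0.253 against 0.361 in WT, and its part in the numbers of peaks was not tested.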

How the results depend on the processing

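With treatment as a replicate block, an alternative chosen after seeing the data, the paired difference in the share of kept summits within 1 kb of a gene start, K303R minus WT, was −0.713 percentage points, from −0.64 with Dox and −0.785 with Dox+E2. Its p was 0.5 by exact sign flips, the smallest that a pair of differences can give. No paired model was fitted over regions. K303R-only counts were 10518 with all peaks, 2093 with lists of 32238 peaks, 6289 with 50% cover, 5947 at 1 relative pileup, 2550 with absence judged on uncut lists, and 13860 and 15365 in the Dox and Dox+E2 pairs. WT-only counts were 1288 with all peaks, 1336 with 32238 peaks, 1696 and 654 at a −log10 q of 5 and 10, 698 with uncut absence, and 13380 and 16907 in the pairs. Leaving out each library gave 5894 to 10622 and 4683 to 13232. All-4 counts were 11961 with 32238 peaks, 11910 at a −log10 q of 10 and 14395 with 50% cover. Only 7.68% of K303R-only and 6.61% of WT-only regions were members again with 32238 peaks, and 87.4% and 85.1% when ties were drawn in another order, an alternative chosen after seeing the data, as was leaving out chromosomes 8, 10 and 15.

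With all peaks and then with uncut absence, K303R-only regions had a peak without Dox in 47.6% and 72.5% in K303R and 56.8% and 67.7% in WT, and WT-only regions in 9.86% and 11.0% and in 18.4% and 16.3%. No peak without Dox in either line held for 33.1% and 16.9% of K303R-only and 78.0% and 78.7% of WT-only regions. In Y537S with Dox the shares were 43.4% and 15.02% of K303R-only and 80.4% and 49.7% of WT-only regions, and in untreated Y537S 68.9% and 57.7%, and 14.3% of WT-only with uncut absence. The order of Y537S with Dox and untreated held in both. Within 2.5 kb of a gene start lay 9.45% and 20.8% of the classes, and with all peaks 6.16% and 9.78% within 1 kb. Estrogen response genes with a K303R-only region numbered 9 at 20 kb, 24 at 100 kb and 26 with all peaks. Dividing pileups by the background put the median log2 ratio over all regions at 0.72 in both pairs and gave 1.13 and 1.11 on chromosome 8, 0.87 and 0.86 on chromosome 10, and 0.48 and 0.48 on chromosome 15 (Dox, Dox+E2). Where a value moved, the cause was not tested beyond the fewer or more peaks that each setting keeps. The motif search 50 bp about summits was not run. Weak pileups limit what can be told: regions near the cut enter or leave a class by 1 fragment.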

Other observations

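A small set of members was listed with Dox in 1 form and in no library outside the comparison, and some of these WT-only regions lay side by side within genes; the genes were picked after their values were seen. In the 8 libraries outside the comparison, uncut, no peak was listed at 104 K303R-only and 118 WT-only regions. Of these, 79 and 66 also had no peak in the uncut lists of the other form. No stretch of 100 kb held more than 1 of the 104, whereas 6 stretches held 3 or more of the 118 (24 regions in all, at most 6 in 1 stretch).

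ATF3, a stress-induced transcription factor gene, had 6 such WT-only regions, 5 inside the gene (chromosome 1, 212610344 to 212616137) and 1 just outside it. In K303R none had a peak with Dox and 2 of the 6 had a peak of 4 with Dox+E2, against pileups of 6 to 9 with Dox and 4 to 8 with Dox+E2 in WT. ELF3, an epithelial transcription factor gene, had 2 (chromosome 1, 202012578 to 202013902), with no peak in K303R against 7 to 9 and 6 to 8 in WT. Around ZNF679 and ZNF736, zinc finger genes of chromosome 7, the 7 WT-only regions within 50 kb of ZNF679, 6 of them in this set and 1 with a peak of 5 in Y537S with Dox, had no peak or 3 to 5 in K303R, against 7 to 18 and 5 to 9 in WT. Both WT libraries concerned carry a peak-name tag that no other library has, and the part of that in these regions was not tested.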
